A study of Mus musculus with 10 samples.

Results

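The E2 add-back in OVX WT mice was examined in 4 of the 10 libraries of the series: 2 from vehicle-treated and 2 from E2-treated mice, chosen by genotype and treatment alone. The vehicle libraries carry the replicate numbers 1 and 3 and the E2 libraries the numbers 1 and 2, and each is RNA of the ventral hippocampus (vHpc) pooled from 2 females of the C57BL/6 strain. All mice of the series, controls included, had their ovaries removed at 70 to 80 days of age and recovered for 2 weeks. For the next 6 weeks their drinking water held β-E2 at 300 nM, an intake of about 0.7 µg a day, or only its carrier, ethanol at 0.1%, and behavioral tests fell in this time. The other 6 libraries came from Het-Met mice, which carry 1 copy of the Met form of brain-derived neurotrophic factor, 3 per treatment. They entered the statistical fit and were used for the contrast of the E2 effect between genotypes. With 2 pools a side, an exact permutation test of the WT libraries could not go below p = 0.333, so the separation of single libraries is given throughout.

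The tissue carried the genes that define the hippocampus. Prox1 of the dentate gyrus lay between 51.4 and 56.9 CPM, Wfs1 of field CA1 between 167 and 205 CPM, and Slc17a7, the vesicular glutamate transporter of cortical and hippocampal excitatory neurons, between 1458 and 1598 CPM in the 4 WT libraries. A CPM is 1 read per 1000000 reads counted on genes, and between 20179344 and 23267410 reads were counted in each WT library. These are bulk samples, in which fewer cells of a type and less RNA per cell cannot be told apart.

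Estradiol acts mainly through the nuclear receptors Esr1 and Esr2, which bind DNA at palindromic estrogen response elements or through other factors, and through receptors at the membrane. The hippocampus expresses both nuclear receptors at low levels. It also borders the lateral ventricle: the choroid plexus is a folded epithelium that hangs in the ventricle and secretes cerebrospinal fluid, and the ependyma is the ciliated sheet that lines the ventricle wall. Pieces of either can come along in a dissection of the hippocampus.

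The 2 E2 libraries were the closest pair of WT libraries, and vehicle library 1 stood apart. The root mean square difference of log2(CPM + 0.5) over 15081 genes was 0.191 between the E2 libraries and 0.274 between the vehicle libraries. Vehicle library 3 lay at 0.236 and 0.220 from the E2 libraries, nearer to both of them than to vehicle library 1. Vehicle library 1 lay at 0.296 and 0.280 from the E2 libraries. The libraries therefore did not group by treatment over all genes. Leaving out the choroid plexus and ependyma lists and every gene that followed the choroid plexus level (defined below) left 14875 genes. This brought vehicle library 1 to 0.261 and 0.254 from the E2 libraries, below its 0.263 from vehicle library 3. Vehicle library 3 then lay at 0.225 and 0.214 from the E2 libraries, still nearer to both of them than to vehicle library 1. The libraries did not group by treatment on these genes either.

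**Figure D1:**
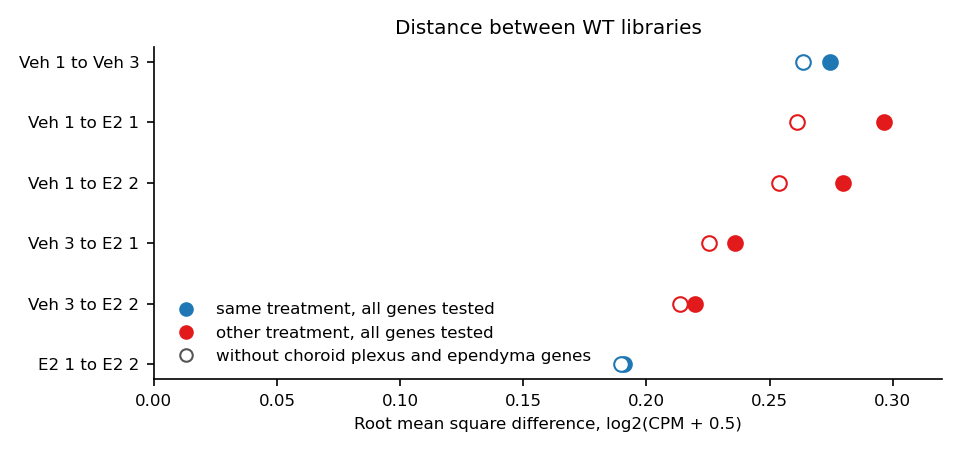
Distance between each pair of WT libraries on the x axis, as the root mean square difference of log2(CPM + 0.5), over the 15081 genes tested (filled) and without choroid plexus and ependyma genes (open). The pair of E2 libraries is closest at 0.191, and all pairs with vehicle library 1 lie at 0.254 or above on either set.

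The threshold of limma, a Benjamini-Hochberg adjusted value under 0.05 with a fold above 1.3, was passed by 2 genes, 0.0133% of those tested, and both rose. At an unadjusted p under 0.05 with the same fold limit, 389 genes (2.58%) passed, 255 of them upward (1.69%) and 134 downward (0.889%). All 255 had both E2 libraries above both vehicle libraries, and 132 of the 134 had both E2 libraries below. This separation largely follows from selecting the genes on the same difference. In a random order of the WT libraries, a share of 0.333 of genes would separate, up and down together. Separation alone was common: 2358 genes (15.6%) had both E2 libraries above and 2437 (16.2%) had both below, and with a fold above 1.3 the counts were 403 (2.67%) and 273 (1.81%). These counts moved with single libraries. The unadjusted count was 732 without vehicle library 3 and 259 without E2 library 1, where the upward part was 146.

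Prelp encodes a small leucine-rich proteoglycan that anchors basement membranes to connective tissue. It lies on chromosome 1 at 133910304 to 133921414 (mm10, minus strand). Prelp was at 49.9 and 48.1 CPM in the vehicle libraries and at 75.9 and 78.3 CPM in the E2 libraries, and it rose by 0.65 ± 0.09 (SE) on the log2(CPM + 0.5) scale (limma, adjusted p = 0.0305). Libraries of the same treatment differed by less than 3 CPM, and the Het-Met libraries, between 50.4 and 61.5 CPM, lay between the WT groups. Zfp459, on chromosome 13 at 67405709 to 67421418 (minus strand), encodes a protein of the large zinc finger family, whose members share sequence, so reads could be split between copies. Zfp459 was at 1.295 and 0.694 CPM with vehicle and at 3.77 and 3.74 CPM with E2, a rise of 1.54 ± 0.22 (adjusted p = 0.0305). Neither gene was marked as following the choroid plexus level (r = 0.30 for Prelp), and the deviations of Zfp459 ran against it (r = -0.78). With that level as a covariate in limma neither gene was called. The log2 differences were then 1.93 for Zfp459 (adjusted p = 0.216) and 0.58 for Prelp. Both calls were lost without vehicle library 3, without either E2 library and without any 1 of the Het-Met vehicle libraries, with adjusted p-values of 0.0566 to 0.498. Without vehicle library 1, Zfp459 kept its call (adjusted p = 0.0344) and Prelp did not (adjusted p = 0.214).

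The promoters of both called genes, and of Capn11, which had the largest difference of any gene tested, are shown because they were searched for estrogen response elements. Each line gives the 250 bases before the transcription start in RefSeq (GRCm38.p6), 5′ to 3′ on the gene's strand, with the motif found in capitals: an E-box (CACGTG) in Zfp459, a half-site (GGTCA, the reverse complement of TGACC) in Prelp and a GC box (GGGCGG) in Capn11. The windows are chr13:67421419-67421668, chr1:133921402-133921651 and chr17:45659310-45659559.
Zfp459: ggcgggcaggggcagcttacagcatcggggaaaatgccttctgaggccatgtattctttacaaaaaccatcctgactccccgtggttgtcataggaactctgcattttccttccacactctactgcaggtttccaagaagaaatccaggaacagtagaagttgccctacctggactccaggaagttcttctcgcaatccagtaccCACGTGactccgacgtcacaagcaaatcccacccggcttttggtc
Prelp: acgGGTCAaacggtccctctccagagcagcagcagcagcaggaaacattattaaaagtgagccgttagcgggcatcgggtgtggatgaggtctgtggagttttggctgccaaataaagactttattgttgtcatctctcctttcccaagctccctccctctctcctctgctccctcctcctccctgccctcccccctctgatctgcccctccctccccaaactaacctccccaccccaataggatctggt
Capn11: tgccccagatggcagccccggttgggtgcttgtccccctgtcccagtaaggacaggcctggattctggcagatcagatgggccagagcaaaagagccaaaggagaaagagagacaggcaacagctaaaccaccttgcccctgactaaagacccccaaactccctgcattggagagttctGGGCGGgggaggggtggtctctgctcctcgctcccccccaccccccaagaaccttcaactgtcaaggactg
None of the 3 windows held the full palindromic element, GGTCA, any 3 bases and TGACC, on either strand. Of 14993 RefSeq promoters, from 250 bases before to 50 after the start, of 11752 of the genes tested, 2 held it (0.0133%), those of Pde10a and Ifltd1. It was in 0 of 253 promoters of the genes that passed the unadjusted test upward and in 0 of 132 promoters of those that passed downward with separated libraries. The half-site TGACC was in 39.5% of the upward and 38.6% of the downward promoters, beside 37.8% of all. The GC box GGGCGG was in 45.5% of either set, beside 59.8% of all promoters, and the E-box CACGTG in 5.93% and 6.82%, beside 9.40%. The half-site also lies within the full element, and every motif was counted on both strands.

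The choroid plexus list differed most between the treatments. All 25 markers were tested, and all 25 passed the unadjusted p upward, where 2.37% of all genes did so, and had both E2 libraries above both vehicle libraries. None passed the adjusted p. The median log2 difference of the list was 1.81, beside -0.0026 over all genes tested, and it was 1.01 without vehicle library 1 and 2.34 without vehicle library 3. Their summed level was 438 CPM in vehicle library 1, 1750 CPM in vehicle library 3, and 3934 and 2936 CPM in the E2 libraries. The vehicle libraries thus differed from each other more than vehicle library 3 differed from either E2 library in ratio. Without vehicle library 1, 14 of the 25 passed the unadjusted p upward.

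**Figure D2:**
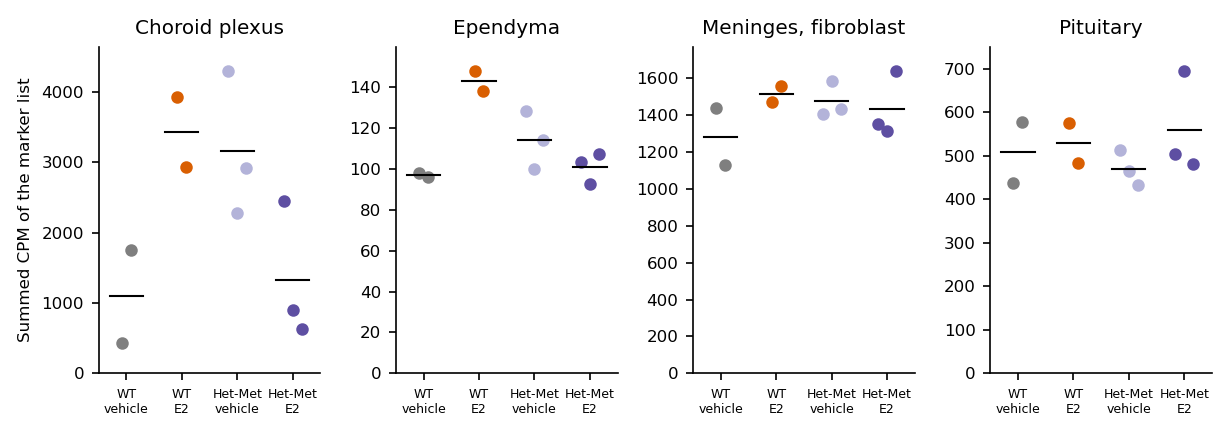
Summed CPM of 4 marker lists in each library (points) with group means (lines). Choroid plexus markers lie at 438 and 1750 CPM with vehicle and at 3934 and 2936 CPM with E2 in WT mice, and the Het-Met libraries span 627 to 4299 CPM. In the WT libraries most of the pituitary sum comes from Chga, Scg2 and Pcsk1 and not from the hormone genes.

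Among the secretory and transport genes of this epithelium, Ttr, the carrier of thyroxine and retinol-binding protein in cerebrospinal fluid, was at 108 and 960 CPM with vehicle and at 2205 and 1687 CPM with E2. Its log2 difference was 2.58 ± 0.81 (limma, adjusted p = 0.804). Folr1, which moves folate into the fluid, was at 1.02 and 6.19 CPM with vehicle and at 14.0 and 11.7 CPM with E2. The epithelial channels and transporters had the same order of libraries. Slc4a5, a bicarbonate cotransporter, was at 0.879, 6.34, 20.9 and 14.7 CPM in vehicle libraries 1 and 3 and E2 libraries 1 and 2, and Kcnj13, a potassium channel of the apical membrane, was at 2.64, 7.19, 24.0 and 17.1 CPM. Kcne2, a potassium channel subunit, Aqp1, a water channel, and Cldn2, a tight junction protein, differed by 2.07 ± 0.66, 1.91 ± 0.57 and 2.19 ± 0.59 on the log2 scale. In all 25 markers vehicle library 1 was below vehicle library 3.

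F5, coagulation factor V, had the largest difference of the list at 2.76 ± 0.63, with 2.17 and 12.2 CPM in the vehicle and 51.8 and 29.2 CPM in the E2 libraries. Kl, which encodes Klotho, was at 21.2, 52.2, 112 and 82.8 CPM. Otx2, the homeobox factor of choroid plexus identity, was at 1.57 and 4.36 CPM with vehicle and at 12.4 and 9.03 CPM with E2 (log2 difference 1.81 ± 0.36, adjusted p = 0.127). Prlr, the prolactin receptor, which is also a known estrogen-responsive gene in other tissues, was at 5.74, 20.1, 62.3 and 34.8 CPM, and its library order was that of the epithelium. Slc2a12 and Wdr86 came closest to a call in the list, at adjusted p-values of 0.0700 and 0.0646. Slc2a12, a glucose transporter, was at 4.72, 7.38, 17.4 and 13.8 CPM, and Wdr86 was at 0.601, 1.59, 5.20 and 4.08 CPM. In Het-Met mice the median difference of the list had the opposite sign, at -0.90, with summed levels of 4299, 2282 and 2918 CPM with vehicle and 2455, 896 and 627 CPM with E2. The interaction of treatment and genotype had an unadjusted p under 0.05 for all 25 markers (5.42% of all genes) and an adjusted p under 0.05 for 2 of them, Slc2a12 and Wdr86.

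A gene was marked as following the choroid plexus where its deviations from the group means correlated with those of the list mean at a Pearson r of at least 0.8 over the 10 libraries. This is a description over libraries that also share depth and dissection, and it does not use the difference between treatments. For a list member the mean was taken over the other members, and 24 of the 25 were marked. Of all genes tested, list members included, 186 (1.23%) were marked. Outside the list the marked genes were 162 of 15056, with 32 of the 230 upward genes (13.9%) and 4 of the 134 downward genes (2.99%) among them. For the pituitary list, 264 genes were marked (1.75%), 1 of the 255 upward genes (0.392%) and 0 of the 134 downward genes. Of the 12 largest upward differences in the named set, 11 were choroid plexus list members. A2m, an abundant protease inhibitor chosen here after its values were seen, was not in the list but was also marked (r = 0.92). It was at 3.15 and 5.45 CPM with vehicle and at 17.1 and 13.0 CPM with E2 (log2 difference 1.73 ± 0.27, adjusted p = 0.0585).

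**Figure D3:**
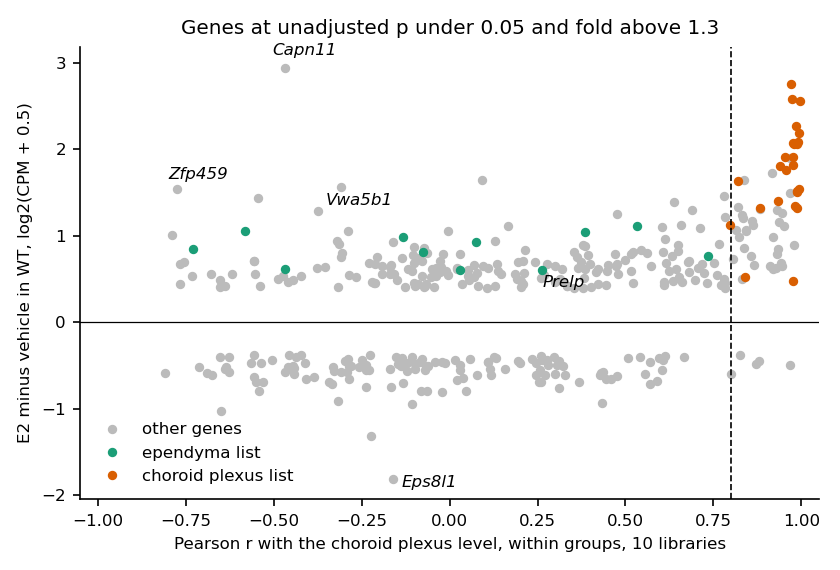
E2 minus vehicle difference in WT mice (y axis, log2(CPM + 0.5)) against the within-group Pearson r with the choroid plexus level over 10 libraries (x axis) for the 389 genes at an unadjusted p under 0.05 and a fold above 1.3. Choroid plexus list members sit at the right edge, ependyma list members spread on both sides of r = 0, and Capn11 and Zfp459 lie at negative r.

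The ependyma list also lay higher with E2, with vehicle libraries that matched each other. Of 19 of its 20 markers tested, 12 passed the unadjusted p upward, 18 had both E2 libraries above both vehicle libraries and 0 passed the adjusted p. Their median log2 difference was 0.65. The summed level was 97.9 and 95.9 CPM with vehicle and 148 and 138 CPM with E2. The split of the treatments in WT mice was thus wider than the spread within either group, and the list median was 0.66 without vehicle library 1. In Het-Met mice the sums were 128, 99.9 and 114 CPM with vehicle and 103, 92.8 and 107 CPM with E2. The Het-Met list median had the opposite sign, at -0.18. The limma interaction had an unadjusted p under 0.05 for 11 members, beside 5.42% of all genes, and an adjusted p under 0.05 for 1. No member was marked as following the choroid plexus. With the choroid plexus level added to the model as a covariate, 8 members passed.

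Several of these markers serve motile cilia. Foxj1, the transcription factor that switches on motile ciliogenesis, was at 8.42 and 8.52 CPM with vehicle and at 15.7 and 13.9 CPM with E2 (log2 difference 0.77 ± 0.15, adjusted p = 0.112). Rsph1, a radial spoke head protein, was at 3.38, 4.86, 8.61 and 9.20 CPM (1.04 ± 0.19, adjusted p = 0.105). Hydin, of the central pair apparatus, was at 3.61 and 3.37 CPM with vehicle and at 6.24 and 6.79 CPM with E2. In each of the 3 the vehicle libraries lay closer to each other than to either E2 library. The tektin gene Tekt1 was at 1.67, 1.88, 4.53 and 4.30 CPM, Ak7 at 2.73, 2.53, 5.56 and 5.33 CPM, and the axonemal dynein gene Dnah11 at 1.99, 1.24, 3.68 and 3.57 CPM. The dynein light chain gene Dynlrb2 was at 1.25, 0.595, 2.33 and 2.41 CPM. Dnah6, an axonemal dynein outside the list and chosen after its values were seen, was at 3.93 and 4.21 CPM with vehicle and at 11.0 and 7.74 CPM with E2 (adjusted p = 0.0767). The untested list member, Mcidas, a regulator of multiciliated cells below the filter, lay the other way, at 0.787 and 0.644 CPM with vehicle and at 0.135 and 0.430 CPM with E2. DESeq2 on the recovered reads called Foxj1, Rsph1 and Dnah6. Whether choroid plexus, ependyma or both were collected to different extents was not tested.

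Pituitary hormone genes were present at levels that varied widely between single libraries. Gh, growth hormone, was at 0.463 and 41.4 CPM with vehicle and at 19.9 and 5.85 CPM with E2. Prl, prolactin, was at 0.648, 39.5, 96.0 and 19.8 CPM, Pomc, the precursor of corticotropin, at 1.62, 11.3, 1.84 and 3.27 CPM, and Cga, the shared hormone subunit, at 0.0463, 3.42, 1.39 and 0.129 CPM. The treatment groups overlapped for all 4, and vehicle library 1 was the lowest of the WT libraries in each. Of 22 list members, 7 were tested and 0 passed the unadjusted p. The summed level of the list was 439 and 577 CPM with vehicle and 575 and 483 CPM with E2, with 2 to 10 members at 0 in a WT library. In each WT library most of that sum came from Chga, Scg2 and Pcsk1, the tested members other than these 4 hormone genes. The sum is therefore not a measure of the hormone genes alone. Between 5 and 6 of the 12 blood markers were at 0 in each WT library, 2 were tested and 0 passed.

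Few markers of the other cell types passed the unadjusted p, which is what passed means for gene lists from here on. Of 16 endothelial markers, 0 passed upward and 2 passed downward, where 1.66% of all genes did so, with a list median of -0.12. Slco1a4 and Abcb1a, transporters of the blood-brain barrier, were the 2. Slco1a4 was at 60.1 and 52.6 CPM with vehicle and at 44.4 and 43.5 CPM with E2, and Abcb1a was at 33.5, 31.9, 26.1 and 25.8 CPM. Mural cells had 1 member upward (Tagln, 0.42 ± 0.16) and 1 downward (Pdgfrb, -0.30 ± 0.12) of 12. Astrocytes had 1 of 16 downward: Gfap, the filament protein, at 341 and 496 CPM with vehicle and at 333 and 314 CPM with E2. No member of the oligodendrocyte (16), oligodendrocyte precursor (10) or microglia (16) lists passed.

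Among neuronal markers, 0 of 10 for the dentate gyrus and 0 of 10 for CA3 passed. Of 10 excitatory neuron markers 1 passed, downward, with a list median of -0.083. Fibcd1, a CA1 marker, was the 1 of 10 in its list to pass, at 174 and 166 CPM with vehicle and at 202 and 213 CPM with E2 (log2 difference 0.28 ± 0.08). Slc17a6, the vesicular glutamate transporter of thalamus, was at 28.4, 32.5, 24.7 and 22.3 CPM, the 1 of 10 thalamic markers to pass. Nos1, neuronal nitric oxide synthase, was the 1 of 14 interneuron markers to pass, at 183 and 178 CPM with vehicle and at 219 and 214 CPM with E2. Ppp1r1b (0.39 ± 0.13), the dopamine-regulated phosphatase inhibitor DARPP-32, and Penk (0.50 ± 0.20), proenkephalin, passed upward out of 12 striatal and amygdalar markers. These are neighboring regions of the vHpc, and the part of the dissection in these values was not tested.

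Outside the choroid plexus list, Capn11 had the largest upward difference. It encodes a calpain protease best known from testis, on chromosome 17. Capn11 was at 0.416 and 0.942 CPM with vehicle and at 5.88 and 11.8 CPM with E2, a log2 difference of 2.94 ± 0.50 (adjusted p = 0.0700), and it did not follow the choroid plexus (r = -0.47). A fit of the 4 WT libraries alone called it, as the only gene (adjusted p = 0.0451). Its Het-Met libraries went the other way, at 3.23, 4.14 and 5.43 CPM with vehicle and 0.391, 1.15 and 3.60 CPM with E2. Vwa5b1 and Pla2g4e, chosen after their values were seen, had the same tight separation as Prelp. Vwa5b1, which encodes a protein with a von Willebrand factor domain, was at 1.34, 1.24, 4.04 and 3.70 CPM (1.29 ± 0.21, adjusted p = 0.0646). Pla2g4e, a cytosolic phospholipase A2, was at 13.1 and 11.7 CPM with vehicle and at 20.1 and 20.2 CPM with E2 (adjusted p = 0.0853). In all 3 the vehicle libraries lay closer to each other than to either E2 library.

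**Figure D4:**
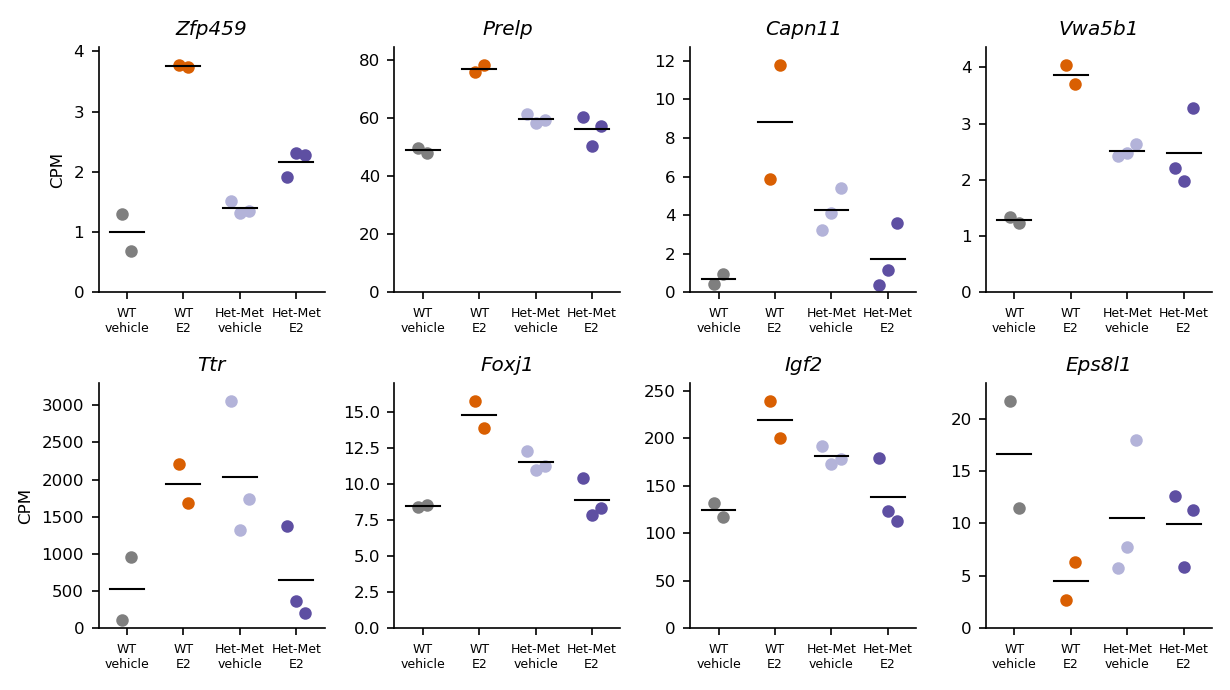
CPM of 8 genes in every library (points) with group means (lines), each panel with its own axis from 0. Zfp459, Prelp, Vwa5b1 and Foxj1 have WT groups wider apart than either group is spread, while Ttr and Eps8l1 have vehicle libraries that lie far apart.

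The 12 largest downward differences of the named set were mostly in genes with few reads. Eps8l1, an adaptor protein of the actin cytoskeleton, was at 21.7 and 11.5 CPM with vehicle and at 2.69 and 6.27 CPM with E2, the largest downward difference at -1.81 ± 0.46 (adjusted p = 0.401). Bub1b, a mitotic checkpoint kinase, followed at 4.81, 1.93, 0.583 and 1.42 CPM. Mir99ahg, the host transcript of a microRNA cluster, had the closest replicates of these genes, at 3.75 and 3.67 CPM with vehicle and at 1.66 and 1.72 CPM with E2 (-0.94 ± 0.19, adjusted p = 0.127). Gm10037 was at 2.27, 1.59, 0.583 and 0.774 CPM, and Tnnt2, cardiac troponin T, at 5.04, 4.01, 2.38 and 1.89 CPM. The remaining genes of this set were Col24a1, Bglap3, Gm19705, Cdsn, Nanos2, Ppp1r3fos and Col5a2, with log2 differences between -0.81 and -0.76. None of the 12 followed the choroid plexus or the pituitary. Reads of Bglap3 may be shared with its near-identical neighbours.

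Collagens differed in both directions. Of 34 genes, 4 passed the unadjusted p upward and 9 downward, beside 2.37% and 1.66% of all genes. Both E2 libraries lay above both vehicle libraries in 6 and below them in 14, beside 15.6% and 16.2% of all genes. The 4 upward members, Col8a1, Col8a2, Col4a3 and Col4a4, were all marked as following the choroid plexus. Col8a1 was at 2.08 and 5.45 CPM with vehicle and at 15.2 and 13.4 CPM with E2, and Col4a4 was at 0.740, 0.892, 3.14 and 2.49 CPM. The 9 downward members included the fibrillar and fibril-associated chains Col5a1, Col5a2, Col11a1, Col11a2, Col12a1, Col16a1, Col19a1 and Col24a1 and the basement membrane chain Col4a2. In each of them vehicle library 1 was the highest WT library. Col5a1 was at 84.3 and 47.1 CPM with vehicle and at 44.9 and 40.7 CPM with E2, and Col5a2 at 33.7, 22.3, 13.9 and 18.5 CPM. Without vehicle library 1, 0 collagens passed the unadjusted p downward in limma, and without either E2 library 3 and 4 did.

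Of 14 small leucine-rich proteoglycan genes tested, Prelp alone passed upward and Aspn alone downward. Aspn, asporin, was at 2.64 and 3.32 CPM with vehicle and at 2.06 and 1.85 CPM with E2, and its within-group deviations followed the choroid plexus (r = 0.97) although its E2 difference was downward. Igf2, the insulin-like growth factor made in brain mainly by meninges, vessels and choroid plexus, was at 131 and 117 CPM with vehicle and at 239 and 200 CPM with E2 (0.82 ± 0.16, adjusted p = 0.120). Igfbp2 (0.65 ± 0.22) and Irs2 (0.34 ± 0.15), a binding protein and an intracellular substrate of the same system, also passed, 3 of 14 in all beside 2.37% of all genes, and Igfbp2 followed the choroid plexus (r = 0.95). Bmp6, a bone morphogenetic protein, was at 6.89, 7.63, 11.9 and 12.03 CPM, and with Tgfbr3 (0.28 ± 0.11) made 2 of 38 in its list. Among 40 Wnt genes, Sfrp1 and Sfrp5, secreted antagonists, and Fzd7, a receptor, passed upward. Sfrp1 was at 5.69, 6.74, 10.7 and 8.47 CPM, and Fzd7 followed the choroid plexus (r = 0.90). The meninges and fibroblast list, which holds Igf2 and Bmp6, had these 2 of 22 upward, a median of 0.10, and summed levels of 1436 and 1127 CPM with vehicle and 1470 and 1555 CPM with E2.

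The receptors of the hormone itself did not pass. Esr1 was at 5.04 and 4.16 CPM with vehicle and at 6.01 and 6.02 CPM with E2 (log2 difference 0.36 ± 0.27). Esr2 was at 0.370, 0.545, 0.987 and 0.602 CPM, where 1 read was worth 0.0430 to 0.0496 CPM. Pgr, the progesterone receptor and a classical E2 target, was at 26.2 and 30.3 CPM with vehicle and at 27.7 and 28.7 CPM with E2, and Bdnf at 39.0, 45.2, 34.7 and 44.0 CPM. The treatment groups overlapped for both Pgr and Bdnf. Of 25 estrogen receptor and responsive genes tested, 3 passed upward and 0 downward, beside 2.37% and 1.66% of all genes, with a median of 0.07. These were Prlr, given above with the choroid plexus, Ecel1 and Ctsd. Ecel1, a neuronal endopeptidase, was at 3.79 and 5.50 CPM with vehicle and at 11.98 and 9.20 CPM with E2 (1.12 ± 0.31), and Ctsd, cathepsin D, at 329, 347, 381 and 374 CPM (0.16 ± 0.07).

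Metabolic and circadian lists held a few genes at the unadjusted p. In fatty acid metabolism 4 of 43 passed upward, 0 downward, and 15 had both E2 libraries above against 1 with both below, beside 2.37% of all genes passing upward, 15.6% lying above and 16.2% below. The list median was 0.055, and 0.028 without vehicle library 1. Among those that passed, Acacb (0.62 ± 0.24), Elovl7 (0.37 ± 0.14) and Acaa2 (0.31 ± 0.14) act in fatty acid synthesis, elongation and oxidation. Of 25 cholesterol synthesis genes 1 passed, downward, and 0 had both E2 libraries above and 8 both below. Their median was -0.11, and it was -0.011 without vehicle library 3 and -0.21 without vehicle library 1. Of 22 clock genes, Per2 and Per3 passed, both downward. Per2 was at 64.5 and 62.5 CPM with vehicle and at 54.4 and 51.5 CPM with E2, and Per3 at 76.1, 65.8, 59.1 and 58.3 CPM.

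Few receptor and activity-regulated genes passed. None of 14 GABA-A receptor subunits and none of 18 ionotropic glutamate receptor subunits passed. The smallest unadjusted values in them belonged to Gabra2 (log2 difference -0.21 ± 0.10) and Grik2 (-0.13 ± 0.07). Of 29 immediate-early genes, Fosb passed upward (0.44 ± 0.18) and Ier5 downward (-0.31 ± 0.10). In axon guidance 2 of 58 passed, both upward: Sema3b, a secreted semaphorin, at 3.61, 4.01, 8.26 and 7.52 CPM, and Robo1, a Slit receptor, at 63.2, 72.7, 77.8 and 79.9 CPM. Among 26 neuropeptide genes Penk alone passed. In the stress axis Sult1a1 (0.52 ± 0.13), a phenol sulfotransferase, and Sgk1 (0.29 ± 0.11), a glucocorticoid-induced kinase, passed upward and Crhr1, the receptor of corticotropin-releasing hormone, downward (-0.39 ± 0.15), out of 23.

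The ESC/E(Z) complex, the Polycomb group of histone methyltransferase subunits that the study examined, had 1 of 13 members pass. Eed was at 13.2 and 16.1 CPM with vehicle and at 11.0 and 12.5 CPM with E2 (-0.30 ± 0.13, unadjusted p = 0.0404 and adjusted p = 1 in limma). By qRT-PCR on a replication of the add-back, the study reports the opposite direction for Eed in WT mice. It lists Eed with Ezh1, Ezh2 and Phf1 as higher under E2 there. Heat-shock proteins (25) and interferon genes (24) had no member that passed. Of 70 cytosolic ribosomal protein genes 1 passed downward, Rpsa (-0.29 ± 0.12), a gene with many processed copies. No respiratory chain gene of 44 passed. In vitamin A, thyroid hormone and iron transport, 3 of 23 passed upward, among them Ttr, given above, and Rdh5 (0.85 ± 0.38), a retinol dehydrogenase that followed the choroid plexus (r = 0.94).

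**Figure D5:**
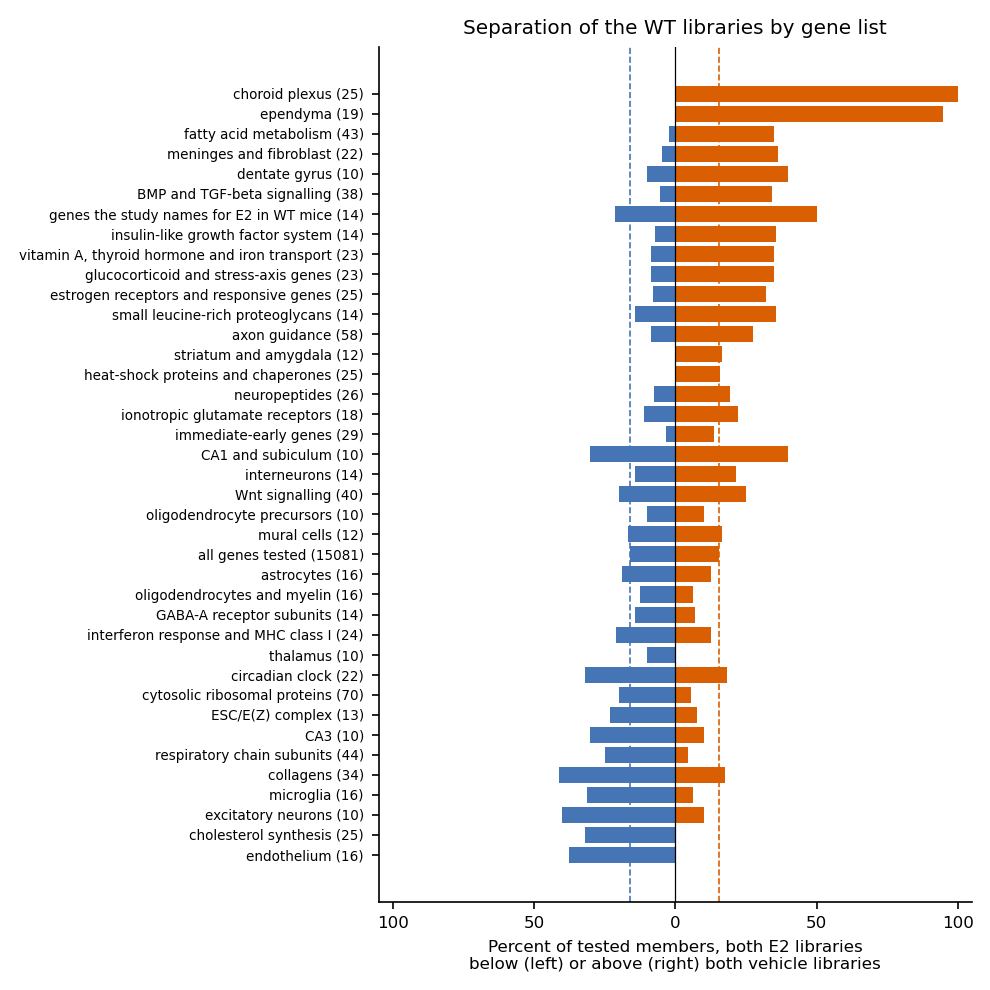
For each gene list with at least 10 tested members (number in brackets), the percent of members with both E2 libraries above (right) or below (left) both vehicle libraries of WT mice. Dashed lines mark the shares of all genes, 15.6% above and 16.2% below, and the choroid plexus and ependyma lists stand at the top with 25 of 25 and 18 of 19 members above.

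The genes that the study names for E2 in WT mice were chosen on these samples, so their direction is not independent evidence. Of the 15 in the list 14 were tested, Erdr1 being below the filter, and of these 3 passed the unadjusted p upward and 1 downward. Sfmbt2, a Polycomb protein, was at 8.42 and 5.35 CPM with vehicle and at 11.5 and 12.7 CPM with E2 (0.80 ± 0.21). Ecel1, given above, also passed upward. Myoc, myocilin, was the 1 downward, at 20.9 and 24.0 CPM with vehicle and at 13.1 and 15.99 CPM with E2 (-0.61 ± 0.12, adjusted p = 0.120). Its Het-Met libraries were at 30.9 to 34.2 CPM with vehicle and at 23.4 to 26.2 CPM with E2, and the interaction did not pass (adjusted p = 1). The others, Egr3, Egr4, Nat8l, Setd7, Phf10, Gria2, Pqlc3, Cartpt, Ccl28 and Gm7120, had log2 differences between -0.18 and 0.59 that did not pass.

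The E2 effect of WT mice was set against that of Het-Met mice in the same fit, by the interaction of treatment and genotype. It passed the adjusted p in 11 genes (0.0729%), all of which had E2 differences of opposite sign in the genotypes. Selecting genes on the difference between the genotypes itself favors opposite signs. Fibcd1 differed by 0.69 ± 0.10 (WT minus Het-Met, adjusted p = 0.0333), with Het-Met libraries at 204, 224 and 204 CPM with vehicle and at 165, 148 and 164 CPM with E2. Capn11 differed by 4.31 ± 0.65 (adjusted p = 0.0333) and Prelp by 0.74 ± 0.12 (adjusted p = 0.0393). Igf2 and Foxj1 differed by 1.23 ± 0.20 and 1.13 ± 0.19 (both adjusted p = 0.0454). By sign alone, higher with E2 in WT and lower in Het-Met mice was the pattern of 8 of the 11. For Prelp the Het-Met difference was small, at -0.093. Of the 255 upward genes 179 had an E2 difference of the other sign in Het-Met mice, and of the 134 downward genes 91, beside 7862 of 15081 over all genes. These calls rested on single libraries. The adjusted count was 0 without either WT E2 library, vehicle library 1 of WT mice, vehicle library 2 or 3 of Het-Met mice or E2 library 2 of Het-Met mice. It was 1 without Het-Met vehicle library 1 or E2 library 3, 46 without WT vehicle library 3 and 71 without Het-Met E2 library 1. Where it was 0, between 553 and 894 genes had an unadjusted p under 0.05. With the choroid plexus level as a covariate it was also 0 in limma, with 413 genes at an unadjusted p under 0.05. It was 13 in edgeR and 37 in DESeq2 on the recovered reads.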

How the data were processed

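RNA of the vHpc was sequenced as stranded 75-bp single-end libraries. The authors trimmed, filtered and aligned reads to mm10 with TopHat2 and deposited CPM per gene symbol for 10 libraries. The counter was featureCounts, going by the name of the deposited table. The annotation and use of strand are not given in the sources used here, so overlapping genes cannot be told apart. Every deposited CPM was a whole multiple of 1 read (100% of values within 0.01), so whole reads were recovered, between 19820184 and 23267410 per library.

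The filter kept 15081 of 24421 genes, those averaging 0.5 CPM or more over the 10 libraries. limma 3.58.1 in R 4.3.3 fitted the 4 group means to log2(CPM + 0.5), using eBayes with trend set (prior df 8.90, residual df 6), so the groups share 1 estimate of the spread. Tests were two-sided, with Benjamini-Hochberg adjustment over all genes, and fold changes are on the log2(CPM + 0.5) scale, which understates low genes. A gene was called at adjusted p under 0.05 and fold above 1.3. The study's methods state DESeq on 3 samples per group, and the remaining 2 WT libraries are not analysed here. Nothing says that pools came from separate cages, so p-values measure the spread between these pools.

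Named genes were called genes, the 12 largest differences in each direction (unadjusted p under 0.05, fold above 1.3, separated libraries, at least 1 CPM in the higher WT group), up to 3 members per list, defining markers, genes named by the study, and Bdnf, Esr1, Esr2 and Pgr. Other list members are given as examples, and further genes are marked as picked with their values known. The 40 gene lists and the comparison itself were chosen with earlier results of these data known. Positions came from GENCODE vM21 and promoters from RefSeq GRCm38.p6. Alternatives were pseudocounts of 0.1 and 1, filters of none and of 2 CPM on average, median-of-ratios and TMM scaling, a replicate block, only the 4 WT libraries, choroid plexus or pituitary level as a covariate, no fold limit, edgeR 4.0.16 and DESeq2 1.42.0 on the recovered reads, and each library left out. The test was tried on simulated data. Results for a few genes that passed are not reported here. Figures used matplotlib 3.10.9.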

Additional observations from a re-analysis of the deposited data

Results flagged for a closer look

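With all 10 libraries, the interaction test of limma with Benjamini-Hochberg adjustment called a different E2 effect in WT and Het-Met mice for 11 genes, of which 10 are given here. The number called fell to 0 on leaving out any 1 of 6 libraries (WT vehicle 1, WT E2 1 and 2, Het-Met vehicle 2 and 3, Het-Met E2 2), with 553 to 894 genes at an unadjusted p under 0.05, and was 1, 1, 46 and 71 on leaving out Het-Met vehicle 1, Het-Met E2 3, WT vehicle 3 and Het-Met E2 1. It was 0 with the choroid plexus level as a covariate (413 at an unadjusted p under 0.05), 13 in edgeR and 37 in DESeq2. Values are the log2 difference E2 minus vehicle in WT mice minus that in Het-Met mice. They were 2.07 ± 0.29 (SE) for Slc2a12, 0.69 ± 0.10 for Fibcd1, 4.31 ± 0.65 for Capn11 and 2.45 ± 0.37 for Wdr86, each at adjusted p = 0.0333, and 0.74 ± 0.12 for Prelp at adjusted p = 0.0393. At adjusted p = 0.0454 they were 1.23 for Igf2, 1.13 for Foxj1, 1.92 for Wdr63, -0.65 for Nrep and -0.84 for Plxdc1. The last 3 are outside the rule for named genes and are given because they passed.

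Nrep was at 85.3, 83.4, 66.3 and 65.8 CPM in the WT libraries. Plxdc1 was at 29.2, 25.0, 22.1 and 21.8 CPM, and Wdr63, a motile cilium gene, at 0.694, 0.694, 2.24 and 1.98 CPM. Slc2a12 and Wdr86 followed the choroid plexus level and the other 8 did not.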

How the results depend on the processing

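The count of called genes, 2 in limma, was 0 with a pseudocount of 0.1, with no filter, with a mean of at least 2 CPM and with the choroid plexus level as a covariate, where 400, 565, 262 and 332 genes passed the unadjusted p and fold. It was 4 with a pseudocount of 1, 1 with only the 4 WT libraries, 6 with the pituitary level as a covariate and 14 in DESeq2, and 0 to 16 when single libraries were left out. With no fold limit, 609 genes passed the unadjusted p, and leaving out libraries moved the 389 to between 259 and 732 and its upward part to between 146 and 340. Separated genes with a fold above 1.3 numbered 437 with a pseudocount of 1 and 346 with a mean of at least 2 CPM, and 674 to 1474 when libraries were left out. The interaction count was 0 with no filter, 5 with a mean of at least 2 CPM, 0 with the choroid plexus covariate, 54 with the pituitary covariate and 37 in DESeq2, and 0 to 71 when libraries were left out. With the choroid plexus covariate, which is built from the same markers, 3 choroid plexus markers passed upward and 2 collagens downward. Leaving out libraries gave 14 to 25, 10 to 14 and 0 to 11 for choroid plexus, ependyma and collagens. Leaving out a WT library leaves 1 in its group, which is then assumed to vary like the other groups. The cause of these changes was not tested.

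The replicate number as a block gave 10 called genes, 1 of them shared with the 2, and 18 for the interaction. The numbers do not pair the WT samples, since only number 1 occurs in both WT groups and its deviations correlated at r = -0.0235.

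Signs turned with the choroid plexus covariate for Ttr (-0.73), Slc4a5 (-0.145), Cldn2 (-0.21), Kcne2 (-0.58), Folr1 (-0.33), Aqp1 (-0.33), Kl (-0.055), Gh (-3.03), Prl (-1.55), Igfbp2 (-0.17), Esr2 (-0.039), Gabra2 (0.060), Col4a3 (-0.52), Col8a2 (-0.20) and Rdh5 (-0.51). Gh was also -0.70 in edgeR and -0.71 in DESeq2, Pgr 0.0011 with median-of-ratios scaling and Ccl28 -0.091 with the block. Leaving out single libraries gave both signs for Gh (-1.88 to 3.56), Pomc (-1.997 to 0.49), Cga (-1.85 to 0.37), Pgr (-0.10 to 0.10), Bdnf (-0.27 to 0.067), Setd7 (-0.0061 to 0.25), Gria2 (-0.12 to 0.0079) and Cartpt (-0.13 to 1.32). The other named genes kept their direction under every alternative run. A level under 3 reads, 0.129 to 0.149 CPM in the WT libraries, is near the counting limit, and Cga lies there in some.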
